A study of Mus musculus with 24 samples.

Results

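Translation initiation factors are the proteins that bring the initiator tRNA, the small ribosomal subunit and the messenger RNA together at the start codon. Their transcripts were followed here as every probe set with a single gene symbol that starts with Eif and a digit, leaving out the eIF2alpha kinases (Eif2ak) and the 4E-binding proteins (Eif4ebp). The rule gave 49 probe sets of 35 genes. The table held 12422 probe sets other than controls, of which 10833, of 8251 genes, carried a single symbol. Of these, 37 probe sets of 31 genes could be tested, because they were never at the lowest value of the table (0.01) on any of the 24 arrays. The other 12 probe sets are described by their values. Eif2s1, the gene of eIF2alpha itself, had no probe set.

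The arrays measured RNA of mouse fibroblast lines in 12 groups of 2 arrays. The cells on 12 arrays were wild-type, ATF4-/- or PERK-/-, each untreated or given 2 ug/ml tunicamycin, an inhibitor of protein glycosylation that causes ER stress, for 6 h (no time is given for PERK-/- cells). On the other 12, cells expressing Fv2E-PERK, a PERK kinase that the drug AP20187 switches on by dimerisation without ER stress, were untreated or received the drug for 4 h or 8 h (the dose is written as 2 nm). The SS line has wild-type eIF2alpha and lacks endogenous PERK, a background chosen by the submitters because clones with high transgene expression were not obtained from wild-type cells. The AA line has mutant eIF2alpha, and its PERK background is not stated. The cells are transgenic lines, and the number of clones is not given. Any other difference between the SS and AA lines cannot be told apart from the eIF2alpha genotype. Nothing in the labels says that the arrays of a group stand for separate cultures, so a p-value here measures only how far these samples spread. On the Fv2E-PERK arrays that spread may be technical, while on the tunicamycin arrays the arrays of each group differed in Xist and Eif2s3y, as given further on.

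The initiation factors work in a fixed order. eIF2 carries the initiator tRNA to the small subunit in a GTP-dependent complex, eIF3 and the scanning factors eIF1 and eIF1A hold that subunit open for the message, and the eIF4 proteins bind the cap and unwind the leader. On start codon recognition eIF5 stimulates GTP hydrolysis by eIF2, eIF5B joins the large subunit, and eIF2B recharges eIF2 with GTP. Phosphorylation of eIF2alpha by PERK turns eIF2 into an inhibitor of eIF2B, which lowers overall initiation while raising translation of ATF4; this is the integrated stress response.

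Each value is a deposited linear ratio of a probe set to about its own median over the 24 arrays, so levels of different genes cannot be set against each other. The tunicamycin and Fv2E-PERK arrays were not compared with each other either: 22.6% to 25.6% of values were at the lowest value on the former and 0.00805% to 0.105% on the latter. Replicate arrays correlated at 0.711 to 0.785 and 0.865 to 0.932 on the log2 scale, apart from the pair of AA arrays at 8 h (0.675). Atf4 was 0.133 to 0.170 on the 4 ATF4-/- arrays and 0.745 to 1.64 on the wild-type ones, and Eif2ak3 (PERK) was 0.241 to 0.987 on the 4 PERK-/- arrays, inside the wild-type range of 0.0222 to 2.26. Whether either probe set lies in the deleted part is not known, so neither value checks the deletion. Ddit3, a stress response gene, was 0.737 and 0.823 in untreated SS cells and 4.94 and 5.23 after 8 h, and stayed between 0.816 and 1.30 on all 6 AA arrays. Of 18 probe sets of 12 fibroblast genes, 14 were never at the lowest value on the tunicamycin arrays, while 8 of 17 for epithelial, endothelial and leukocyte genes (of Krt19, Epcam, Cdh5, Ptprc, Cd3e and Cd68) were there on 11 or 12 of the 12 arrays. Of those 17, 3 were never there, those of Cdh1 and Cd14 and a second one of Cd68. The rest lay between: those of Krt8, Krt18 and Tek were there on 1 or 2 arrays, Pecam1 on 4 and a probe set of Ptprc on 8. Among the fibroblast probe sets, one of Pdgfra was there on 9 arrays, and those of Thy1, Fap and Dcn on 5, 3 and 1. No marker was at the lowest value on the Fv2E-PERK arrays, where these ratios say nothing about cell type.

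The RefSeq promoters (build GRCm38.p6) of the members were searched because 4 of them rose together in the SS line, as described further on. The table held 43 promoters of 31 member genes, of 32851 in all, and the 250 bases before each start were searched on both strands for 4 sequence words. The C/EBP-ATF response element to which ATF4 binds, TGATG followed by any base and then AA and any base, occurred in 1 member promoter, that of Eif2s3x (2.33% of member promoters against 3.44% of all promoters). The ER stress response element bound by ATF6, CCAAT and CCACG with 9 bases between them, occurred in 0 of 43 (0.113% of all). The core of the cyclic AMP response element, TGACG, was found in 21 of 43 promoters, of 16 genes (48.8% against 17.8%). The E-box CACGTG was found in 9 of 43, of 7 genes (20.9% against 6.02%). Matches to TGACG and CACGTG were counted separately and may share bases. Promoters of a gene can overlap, so the same site can count more than once, as TGACG did for Eif4e2, Eif4enif1 and Eif5a and CACGTG for Eif5a. Both words hold the bases CG, and the promoters were not matched for base composition. A match describes the letters and is not a binding site. The sequences below are the promoters of the 4 genes that rose in SS cells at 8 h and that of Eif2s3x, with matches to the ATF4 element or to TGACG in capitals. They lie at chr2:154892907-154893156 (Eif2s2, minus strand), chr7:126566367-126566616 (Eif3c, minus), chr15:77970825-77971074 (Eif3d, minus), chr2:122028330-122028579 (Eif3j1, plus) and chrX:94212652-94212901 (Eif2s3x, minus), each ending at the base before the start.
Eif2s2: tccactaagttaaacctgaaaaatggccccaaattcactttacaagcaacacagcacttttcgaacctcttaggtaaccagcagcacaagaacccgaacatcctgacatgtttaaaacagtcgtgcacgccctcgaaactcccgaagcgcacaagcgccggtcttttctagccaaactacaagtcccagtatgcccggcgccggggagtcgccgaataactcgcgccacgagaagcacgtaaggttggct
Eif3c: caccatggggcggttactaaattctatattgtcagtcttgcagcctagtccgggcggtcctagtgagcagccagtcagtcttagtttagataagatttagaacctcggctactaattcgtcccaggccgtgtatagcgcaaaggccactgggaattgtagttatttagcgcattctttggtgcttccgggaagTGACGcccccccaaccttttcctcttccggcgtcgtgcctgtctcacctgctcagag
Eif3d: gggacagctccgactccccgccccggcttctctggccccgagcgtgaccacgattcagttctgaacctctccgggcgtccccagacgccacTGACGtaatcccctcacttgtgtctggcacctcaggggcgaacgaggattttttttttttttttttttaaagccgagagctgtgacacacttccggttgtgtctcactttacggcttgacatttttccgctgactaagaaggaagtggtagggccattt
Eif3j1: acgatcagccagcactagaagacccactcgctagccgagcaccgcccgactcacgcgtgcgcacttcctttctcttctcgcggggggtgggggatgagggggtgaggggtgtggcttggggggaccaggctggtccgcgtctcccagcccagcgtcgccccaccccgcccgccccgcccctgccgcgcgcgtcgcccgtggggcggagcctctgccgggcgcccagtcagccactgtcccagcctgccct
Eif2s3x: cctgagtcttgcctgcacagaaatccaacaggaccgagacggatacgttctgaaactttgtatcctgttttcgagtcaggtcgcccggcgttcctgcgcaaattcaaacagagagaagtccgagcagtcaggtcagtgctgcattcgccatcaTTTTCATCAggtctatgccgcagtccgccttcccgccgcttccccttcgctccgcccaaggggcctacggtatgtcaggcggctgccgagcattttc
Among the 4 genes that rose, Eif3c and Eif3d each held TGACG once, at bases -57 and -159 from the start, and Eif2s2 and Eif3j1 held none of the 4 words. The ATF4 element in Eif2s3x lay at base -97, on the opposite strand.

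The first comparison asked what 8 h of PERK activation without ER stress did to the factors in SS cells. In all, 4 of the 37 tested probe sets rose and 0 fell at a limma adjusted p under 0.05, where 11.9% of all 7369 probe sets tested rose and 5.1% fell. The risers were Eif2s2, which encodes eIF2beta, the subunit through which eIF2 meets eIF5 and eIF2B, and 3 subunits of eIF3, the large scaffold of the small subunit: Eif3c, Eif3d and Eif3j1. The share that rose, 10.8%, was near the background. The median of the 37 changes was 0.35 on the log2 scale against 0.07 over all probe sets tested. Of the 37, 30 were above 0 (81.1%), against 56.4% of all probe sets tested. In RNA of whole cultures, fewer cells with a transcript and less of it per cell cannot be told apart.

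Eif2s2 (160365_at) had ratios of 1.03 and 1.03 in untreated SS cells, 1.38 and 1.13 after 4 h and 2.09 and 2.41 after 8 h. Both arrays at 8 h lay above all 4 others of the line, 2.19-fold over the untreated mean. The change of 0.97 ± 0.14 (SE, log2, n = 2 arrays a group) passed limma's test with an adjusted p of 0.00106, and it passed in all 13 settings tried, with an adjusted p of 0.0008 to 0.0163. The second probe set of Eif2s2, 97083_at, was 0.232 and 0.319 untreated, 0.611 and 0.367 after 4 h and 0.419 and 0.435 after 8 h. Its arrays at 8 h also lay above the untreated ones, 1.55-fold, but it did not pass the test (0.37 ± 0.25, limma adjusted p = 0.376).

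Eif3d, a subunit that contacts the message and the cap, was 1.24 and 1.76 in untreated SS cells, 1.58 and 1.76 after 4 h and 2.31 and 2.79 after 8 h. It rose 1.70-fold (0.69 ± 0.16, log2, limma adjusted p = 0.0144). Eif3j1, a loosely bound subunit near the decoding site, was 1.07 and 1.45 untreated, 1.6 and 1.46 after 4 h and 1.80 and 2.20 after 8 h, a 1.59-fold rise (0.58 ± 0.15, limma adjusted p = 0.0232). Eif3c, a core subunit, was 0.911 and 1.21 untreated, 1.15 and 1.22 after 4 h and 1.45 and 1.86 after 8 h, a 1.56-fold rise (0.54 ± 0.16, limma adjusted p = 0.0391). In each of the 3 genes the arrays at 8 h did not overlap with the untreated ones, and the second untreated array was the higher one.

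**Figure D1:**
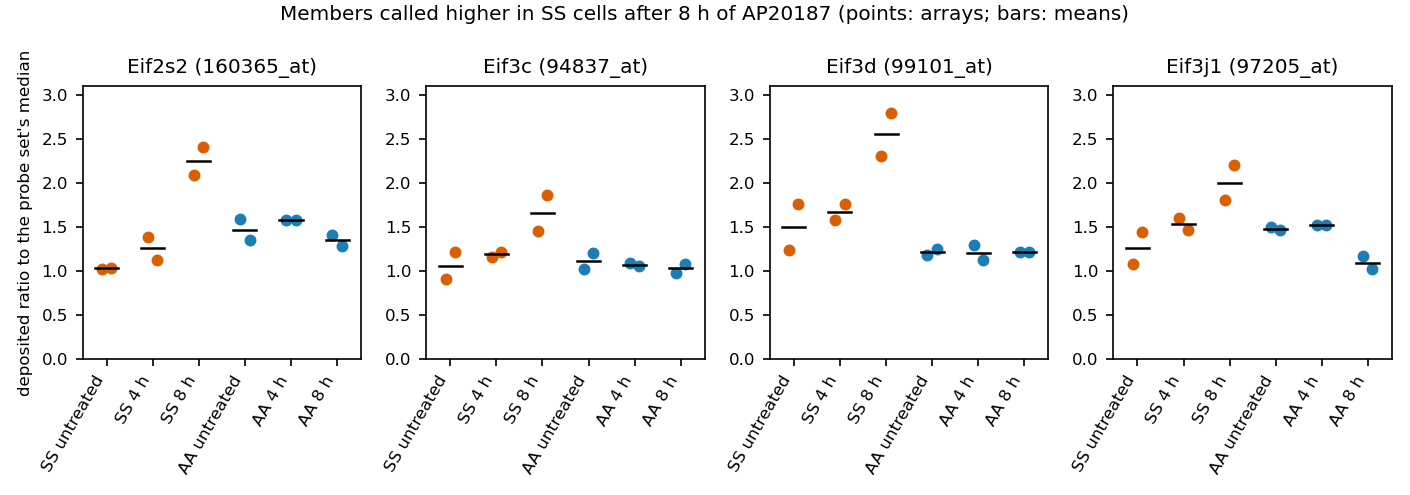
Deposited ratios (linear axis from 0) of Eif2s2, Eif3c, Eif3d and Eif3j1 on the 12 Fv2E-PERK arrays, SS cells in orange and AA cells in blue; points are arrays and bars group means. In SS cells the arrays at 8 h lie highest for all 4 genes, and in AA cells no group at 8 h lies above its untreated arrays.

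The calls for the 3 eIF3 subunits rested on single arrays. Without the first untreated SS array, the limma adjusted p was 0.0944 for Eif3d, 0.143 for Eif3j1 and 0.214 for Eif3c, and 1 of 37 probe sets rose. Without the second array at 8 h it was 0.121, 0.177 and 0.268, and 1 rose. Without the second untreated array, in which the median ratio of the tested members was 1.35 against 1.08 on the first, 10 rose. The part of this difference in the result was not tested. Quantile normalization within the 12 arrays left 1 riser, with a median of 0.22 for the members against 0.01 for all; it changed the split over all probe sets from 878 higher and 376 lower to 345 and 335.

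By role, 11 tested probe sets were grouped as eIF2, its exchange factor and its GTPase activator. This eIF2 group also held Eif2a and Eif2d, whose proteins are none of these. All 11 were above 0 in SS cells at 8 h, with a median of 0.40 on the log2 scale and 1 call. The catalytic subunit of eIF2B, Eif2b5, was 1.12 and 1.49 untreated and 1.99 and 2.56 at 8 h by probe set 96822_at (0.70 ± 0.22, limma adjusted p = 0.0525). Its other probe set, 160804_at, was 1.12 and 1.90 untreated and 2.29 and 2.31 at 8 h (0.57 ± 0.22, limma adjusted p = 0.102). Eif5, the GTPase activator of eIF2, was 1.09 and 1.08 untreated and 1.48 and 1.69 at 8 h (0.46 ± 0.15, limma adjusted p = 0.0528). None of these values passed the test. The arrays at 8 h lay above the untreated ones in each, which held for 59.5% of members and 33.8% of all probe sets tested.

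The 10 tested eIF3 probe sets had 3 calls, 9 values above 0 and a median of 0.38. The exception was Eif3f, another subunit, at 0.412 and 0.489 untreated, 0.297 and 0.0867 after 4 h and 0.253 and 0.124 after 8 h (-0.69 ± 0.28 at 8 h, limma adjusted p = 0.121). The arrays of both treated groups lay below the untreated ones. The 9 tested probe sets of the eIF4 group had a lower median, 0.08, with 6 above 0 and 0 called; they ranged from -0.21 to 0.42. Eif4a2, an RNA helicase, was 1.38 and 1.32 untreated and 1.75 and 1.11 at 8 h, so that its groups overlapped. Eif4e, the cap-binding protein, was 0.881 and 1.10 untreated and 0.828 and 0.810 at 8 h (-0.21 ± 0.23, limma adjusted p = 0.602). The 5 scanning factor probe sets had a median of 0.15 and no call, and Eif6, which keeps free large subunits from joining, was 1.12 and 1.83 untreated and 2.06 and 2.57 at 8 h (0.60 ± 0.24, limma adjusted p = 0.115).

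At 4 h in SS cells the pattern was different. Eif1ax, the X-linked gene of the scanning factor eIF1A, fell, and no other tested probe set was called, where 5.29% of all probe sets tested fell and 7.42% rose. The median of the 37 changes was -0.05 against -0.03 over all, with 15 above 0 (40.5%, against 46.8% of all probe sets tested). Eif1ax (93358_at) was 1.86 and 2.21 untreated, 1.25 and 1.16 after 4 h and 1.87 and 2.02 after 8 h. Both arrays at 4 h lay below the 4 others of the line (-0.65 ± 0.16, log2, limma adjusted p = 0.0256). The other probe set, 160111_at, was 1.86 and 1.45 untreated, 1.08 and 1.31 after 4 h and 1.33 and 0.986 after 8 h (-0.39 ± 0.22 at 4 h, limma adjusted p = 0.294). The call for Eif1ax was lost without the first array at 4 h (limma adjusted p = 0.124), without the second (0.156) and without the second untreated array (0.138). Eif1a and Eif1ax are close copies, and how far their probe sets share signal is not known.

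The members with the next smallest p at 4 h were also below untreated. Eif5b, which joins the subunits, was 2.50 and 1.87 untreated, 1.69 and 0.986 after 4 h and 2.13 and 2.13 after 8 h (-0.64 ± 0.21 at 4 h, limma adjusted p = 0.0679). It passed with the replicate number as a block (limma adjusted p = 0.0259) and without the first array at 4 h (0.0310), and had its highest adjusted p, 0.430, without the second. Eif2s3x, the X-linked gene of eIF2gamma, was 1.13 and 1.31 untreated, 0.899 and 0.923 after 4 h and 1.14 and 1.33 after 8 h (-0.34 ± 0.13 at 4 h, limma adjusted p = 0.123). In both genes the arrays at 4 h lay below those of the other groups of the line. Both arrays at 4 h lay below both untreated ones in 18.9% of members and 29.8% of all probe sets tested. Eif3f at 4 h was at -0.71 ± 0.28 (limma adjusted p = 0.128).

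Between 4 h and 8 h in SS cells, 34 of the 37 tested probe sets had values above 0 (91.9%), against 60.8% of all probe sets tested. The median change was 0.35 against 0.09 over all. Only Eif2s2 (160365_at) was called, at 0.73 ± 0.14 (limma adjusted p = 0.0185), where 2.86% of all probe sets tested rose and 1.25% fell. The other probe set of Eif2s2, 97083_at, did not show the rise. It was 0.611 and 0.367 at 4 h and 0.419 and 0.435 at 8 h, with overlapping groups. The untreated arrays do not enter this comparison. The call was lost when any of its 4 arrays was left out, at a limma adjusted p of 0.0521 without the first array at 8 h, 0.173 without the second, 0.0686 without the first at 4 h and 0.172 without the second. Both arrays at 8 h lay above both at 4 h in 29 of 37 members, against 36.3% of all probe sets tested, and in 0 of 37 both lay below, against 18.0%. Next came Eif1ax (93358_at, 0.59 ± 0.16, limma adjusted p = 0.0717), Eif3d (0.54 ± 0.16, 0.0878) and Eif5b (0.62 ± 0.21, 0.124), which did not pass. The other Eif1ax probe set, 160111_at, overlapped, at 1.08 and 1.31 at 4 h and 1.33 and 0.986 at 8 h. By role, the eIF2 group had a median of 0.51, eIF3 0.43, the scanning factors 0.32 and the eIF4 group 0.09. Quantile normalization lowered the member median to 0.18 against 0.01 for all, and changed the split over all probe sets from 211 higher and 92 lower to 6 and 20.

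**Figure D2:**
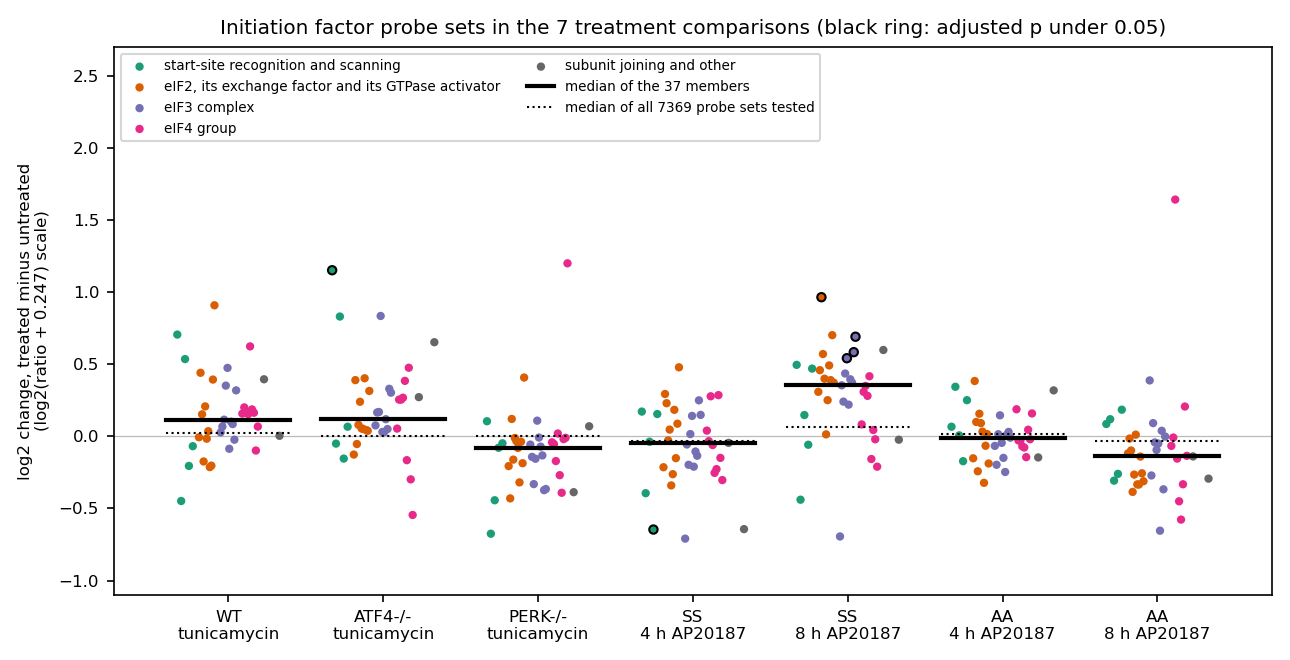
Log2 change (log2(ratio + 0.247) scale) of the 37 tested initiation factor probe sets in the 7 treatment comparisons, coloured by role; black rings mark limma adjusted p under 0.05, solid lines the member median and dotted lines the median of all 7369 probe sets. The member median stands highest, at 0.35, in SS cells at 8 h and lowest, at -0.14, in AA cells at 8 h, and 6 points are ringed.

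In AA cells, whose eIF2alpha is mutant, no initiation factor was called at either time. limma called 0 of all 7369 probe sets (0.0%) at 4 h and 0 (0.0%) at 8 h, while 233 and 480 had an unadjusted p under 0.05. The member medians were -0.01 at 4 h and -0.14 at 8 h, against 0.02 and -0.04 over all. At 4 h the smallest p belonged to Eif5, at 0.778 and 0.705 untreated and 1.16 and 0.937 treated (0.38 ± 0.15, limma adjusted p = 1.0). It was followed by Eif1ax (160111_at, 0.34 ± 0.22), Eif5b (0.32 ± 0.21) and Eif1b (0.25 ± 0.20), each with a limma adjusted p of 1.0.

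At 8 h in AA cells, Eif4enif1, the gene of 4E-T, which carries eIF4E into the nucleus and represses the messages it binds, had the largest log2 change among the tested probe sets. It was 0.427 and 0.151 untreated, 0.175 and 0.362 after 4 h and 1.34 and 1.40 after 8 h. The arrays at 8 h lay above all 4 others of the line, 4.74-fold over the untreated mean, yet the change of 1.64 ± 0.47 had a limma adjusted p of 0.625. The same probe set had a wide spread in SS cells, at 0.0937 and 0.434 untreated and 0.121 and 0.776 at 8 h. Below untreated were Eif3m, an eIF3 subunit, at 1.42 and 1.59 untreated and 1.18 and 0.621 at 8 h (-0.65 ± 0.21, limma adjusted p = 0.707), the helicase Eif4a1, at 0.815 and 1.11 untreated and 0.729 and 0.419 at 8 h (-0.58 ± 0.21, 0.709), and Eif3j1, at 1.5 and 1.46 untreated and 1.17 and 1.02 at 8 h (-0.37 ± 0.15, 0.741). The second array at 8 h, which correlated least with its partner, had the lower value for Eif3m and Eif4a1, and the median of the tested members was 1.03 on it against 1.33 on the first. Without the first array at 8 h, which leaves that array alone, 1 member was called, Eif3m (limma adjusted p = 0.0472).

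The test of the difference asked whether the response to 8 h of AP20187 depended on the line. Eif2s2 and Eif3j1 differed, with lower responses in AA than in SS cells, and no tested probe set differed the other way; 6.84% of all probe sets tested had a lower response in AA and 1.94% a higher one. Eif2s2 (160365_at) was 1.59 and 1.35 in untreated AA cells, 1.58 and 1.58 at 4 h, and 1.41 and 1.29 at 8 h, so its 8 h groups overlapped with untreated. The difference, which uses the same SS arrays as the response above, was -1.06 ± 0.20 (95% interval -1.49 to -0.63, limma adjusted p = 0.00977). It passed in 16 of 17 settings, the exception being without the first untreated AA array (-0.96, limma adjusted p = 0.0515). For Eif3j1 the difference was -0.95 ± 0.21 (95% interval -1.42 to -0.48, limma adjusted p = 0.0233).

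The Eif3j1 difference did not pass without the second AA array at 8 h (limma adjusted p = 0.0718), the first (0.0827) or the second untreated AA array (0.0628), the second SS array at 8 h (0.0925) or the first untreated SS array (0.0606). The count of 2 became 7 without the first AA array at 8 h, 4 without the second untreated SS array, 0 without the first untreated AA array, and 1 without the second AA array at 8 h, the second untreated AA array, the second SS array at 8 h or the first untreated SS array. The member median was -0.44 against -0.09 over all, with 5 of 37 values above 0 (13.5%, against 43.8% of all probe sets tested). Next by p were Eif3m (-1.05 ± 0.30, limma adjusted p = 0.055) and Eif2b5 (160804_at, -0.96 ± 0.31, 0.0799). Quantile normalization kept 2 calls and changed the split over all probe sets from 143 higher and 504 lower to 115 and 151.

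For the 4 h responses, 0 of 37 differed between the lines, where 1.33% of all probe sets tested were lower in AA and 0.95% higher; 3 members had an unadjusted p under 0.05, all with a higher value in AA (8.7% of all probe sets). Eif5b had the smallest p (0.96 ± 0.30, AA minus SS, limma adjusted p = 0.122), followed by Eif1ax (160111_at, 0.74 ± 0.32, 0.259), Eif2s3x (0.43 ± 0.19, 0.269) and Eif1ax (93358_at, 0.475 ± 0.23, 0.337). Eif5b, Eif1ax and Eif2s3x were among the members below untreated in SS cells at 4 h. The difference uses the same SS arrays with the sign reversed, so this overlap is partly built in and is no separate evidence for those falls.

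After tunicamycin few initiation factors were called, and few of all probe sets tested were. In wild-type cells 0 of 37 passed, where limma called 0.679% of all probe sets higher and 0.163% lower; 6 members had an unadjusted p under 0.05, all above 0 (6.19% of all probe sets). In ATF4-/- cells 1 rose, Eif1a, the autosomal copy of the eIF1A gene, where 0.394% of all probe sets rose and 0.0271% fell. In PERK-/- cells 0 of 37 passed, and limma called 0 of all probe sets (0.0%), with 527 at an unadjusted p under 0.05; 3 members were among them, all below 0 (3.43% of all probe sets). The member medians were 0.12 in wild-type, 0.12 in ATF4-/- and -0.08 in PERK-/- cells, against 0.02, 0.00 and 0.00 over all. In the same order, 26, 30 and 7 of 37 members were above 0 (70.3%, 81.1% and 18.9%), against 53.1%, 50.3% and 50.2% of all probe sets tested.

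In wild-type cells the ratios of Eif1a (103708_at) were 0.789 and 0.623 without tunicamycin and 1.34 and 1.26 with it, a 1.84-fold difference without passing the test (0.71 ± 0.16, limma adjusted p = 0.111). In ATF4-/- cells they were 0.547 and 0.629 without it and 1.74 and 1.48 with it, a 2.74-fold rise (1.15 ± 0.16, limma adjusted p = 0.0255). In PERK-/- cells they were 0.458 and 0.373 without it and 0.547 and 0.389 with it, with overlapping groups (0.10 ± 0.16, limma adjusted p = 0.998). The second probe set, 93058_at, was 0.721 and 0.577 untreated and 1.01 and 1.09 treated in wild-type cells, 0.596 and 0.905 and 1.6 and 1.41 in ATF4-/- cells, and 0.466 and 0.479 and 0.331 and 0.238 in PERK-/- cells. It passed in none of the lines, at 0.54 ± 0.18, 0.83 ± 0.18 and -0.44 ± 0.18 with limma adjusted p of 0.272, 0.136 and 0.671.

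With tunicamycin both probe sets of Eif1a thus lay above untreated in wild-type and ATF4-/- cells, and 93058_at lay below it in PERK-/- cells. The differences of the responses between PERK-/- and wild-type cells were -0.60 ± 0.23 and -0.98 ± 0.25, with limma adjusted p of 0.599 and 0.359. The call in ATF4-/- cells was lost when any of its 4 arrays was left out, the limma adjusted p being 0.220 and 0.170 with the first or the second treated array dropped, and 0.230 and 0.118 with the first or the second untreated one dropped. Quantile normalization called 3 members in ATF4-/- cells, Eif1a by both probe sets and Eif3a, and changed the split over all probe sets from 29 higher and 2 lower to 51 and 15.

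**Figure D3:**
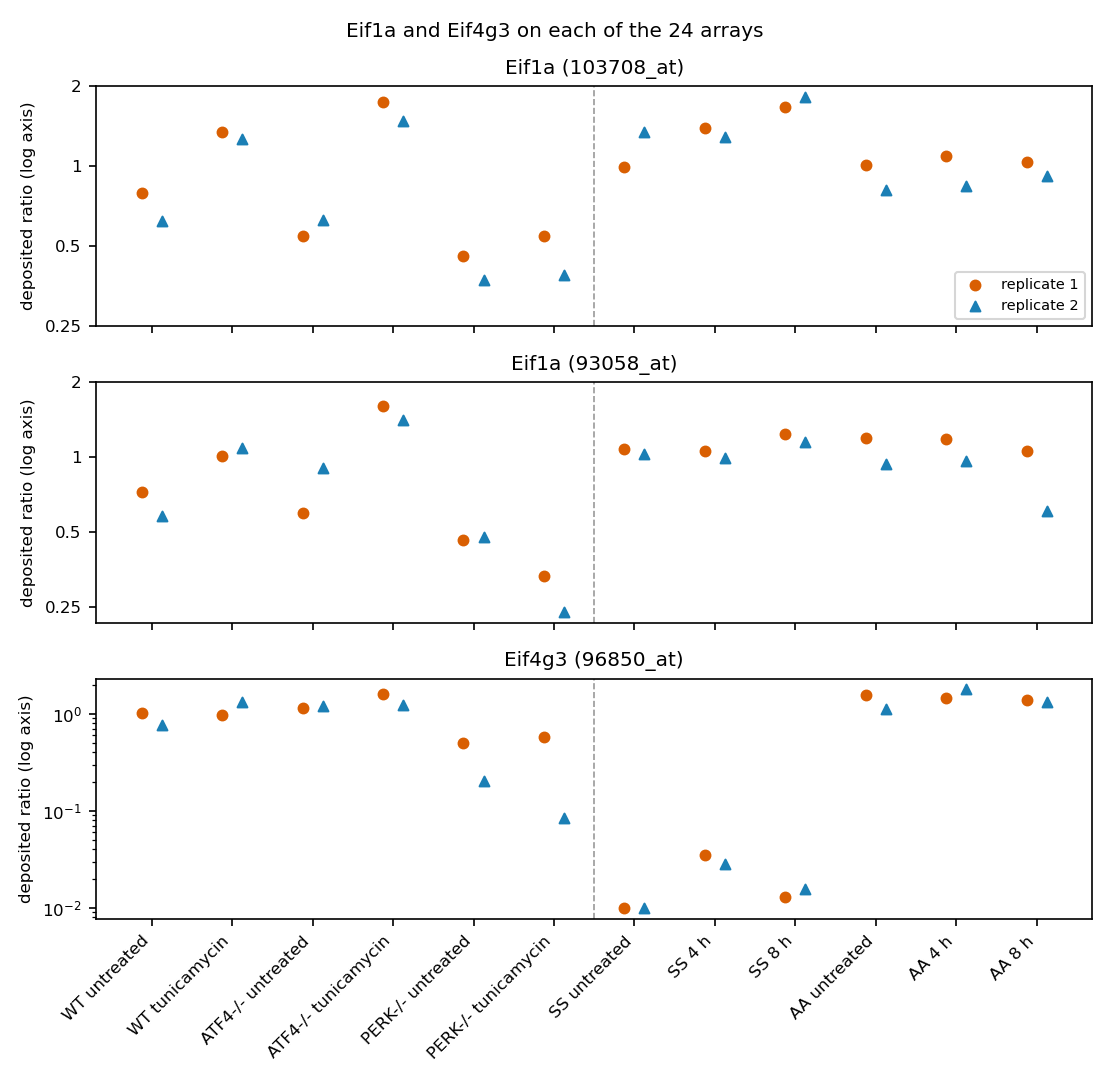
Deposited ratios of Eif1a (2 probe sets) and Eif4g3 on each of the 24 arrays, on log axes; circles are replicate 1, triangles replicate 2, and the dashed line parts the tunicamycin from the Fv2E-PERK arrays, between which levels are not compared. Eif1a lies higher with tunicamycin in wild-type and ATF4-/- cells, and Eif4g3 lies at 0.01 to 0.035 on all 6 SS arrays.

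Other members with small p after tunicamycin are given here by their values, none of which passed limma's test. In wild-type cells these were Eif2s2 by 97083_at, at 2.25 and 1.54 untreated and 3.89 and 3.56 treated (0.91 ± 0.26, limma adjusted p = 0.183), and Eif3c, at 0.782 and 0.646 untreated and 1.03 and 1.14 treated (0.47 ± 0.16, 0.276). For Eif2s2 the other probe set, 160365_at, was 0.747 and 0.493 untreated and 0.825 and 0.602 treated, with overlapping groups. In ATF4-/- cells Eif3a, the largest eIF3 subunit, was 0.836 and 0.887 untreated and 1.77 and 1.69 treated, 2.01-fold apart (0.83 ± 0.14, limma adjusted p = 0.053). Eif4a2 was 0.717 and 0.690 untreated and 1.19 and 0.967 treated (0.48 ± 0.14, 0.298). The untreated and treated arrays of these probe sets, picked by small p, did not overlap, with the exception of 160365_at. Such a separation was common: in wild-type cells both treated arrays lay above both untreated ones in 15 of 37 members and 1627 of all 7369 probe sets tested. In ATF4-/- cells this held for 18 members and 1839 of all probe sets tested.

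In PERK-/- cells the 4 smallest p values belonged to probe sets below untreated. Eif5 was 0.801 and 0.802 untreated and 0.566 and 0.498 treated (-0.43 ± 0.16, limma adjusted p = 0.632). Eif3d was 0.727 and 0.657 untreated and 0.574 and 0.400 treated (-0.36 ± 0.15, limma adjusted p = 0.681). Eif3b was 0.771 and 0.739 untreated and 0.637 and 0.471 treated (-0.33 ± 0.15, limma adjusted p = 0.718). Eif1a by 93058_at is given above. The groups did not overlap in any of the 4, which were picked by smallest p. Both treated arrays lay below both untreated ones in 24.3% of members and in 14.1% of all probe sets tested.

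The tests of the differences between lines called no initiation factor. For ATF4-/- minus wild type and for PERK-/- minus wild type, limma called 0 of all probe sets (0.0% in both), with 362 and 561 at an unadjusted p under 0.05. For PERK-/- minus wild type 7 members were below 0 at that p (4.71% of all probe sets). The member median was 0.05 for ATF4-/- minus wild type, against 0.00 over all, and -0.21 for PERK-/- minus wild type, against -0.02. For PERK-/- minus wild type the smallest p values after Eif1a were those of Eif5 (-0.87 ± 0.23, limma adjusted p = 0.359) and Eif3d (-0.68 ± 0.21, 0.501). For ATF4-/- minus wild type they were those of Eif3a (0.48 ± 0.20, limma adjusted p = 0.997), Eif5b (0.65 ± 0.31, 1.0), Eif3c (-0.44 ± 0.23, 1.0) and Eif1a (103708_at, 0.45 ± 0.23, 1.0). The comparisons between lines share the wild-type arrays.

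The untreated lines were compared next. Between untreated AA and SS cells, 4 of 37 tested probe sets were higher in AA and 2 lower, where 8.03% of all probe sets tested were higher and 11.3% lower, shares near those of the members (10.8% and 5.41%). Higher in AA were Eif4e, Eif1b, a form of the scanning factor eIF1, and the eIF2B subunits Eif2b4 and Eif2b5. Lower in AA were Eif5b and Eif2a, a factor that can bring tRNA to the ribosome independently of eIF2.

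Eif4e was 0.881 and 1.10 in SS and 2.22 and 2.37 in AA cells, 2.32-fold higher (1.05 ± 0.23, limma adjusted p = 0.0074). This probe set, 99097_at, was at 1.66 to 2.91 on all 6 AA arrays and at 0.562 to 1.10 on the SS arrays. The other probe set of Eif4e, 162222_r_at, was not tested and did not show the difference: it was 1.03 and 1.03 in untreated SS and 0.868 and 1.42 in untreated AA cells, and its ranges over the 6 arrays of each line overlapped. Eif1b was 0.946 and 1.49 in SS and 2.34 and 2.19 in AA cells (0.80 ± 0.20, limma adjusted p = 0.0153). Eif2b5 by 160804_at was 1.12 and 1.90 in SS and 2.69 and 2.94 in AA cells (0.84 ± 0.22, limma adjusted p = 0.0203), and its other probe set, 96822_at, did not pass (0.38 ± 0.22, 0.273). Eif2b4 was 0.609 and 1.03 in SS and 1.53 and 1.68 in AA cells (0.82 ± 0.23, limma adjusted p = 0.0252). In the 4 probe sets named as higher in AA, the lines did not overlap. Both untreated AA arrays lay above both SS ones in 35.1% of members and 29.2% of all probe sets tested.

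Eif5b by 98142_at was 2.50 and 1.87 in SS and 1.21 and 1.03 in AA cells (-0.82 ± 0.21, limma adjusted p = 0.0174). Its other probe set, 98141_at, was not tested and overlapped, at 2.28 and 1.32 in SS and 1.61 and 1.02 in AA cells. Eif2a was 1.10 and 1.12 in SS and 0.774 and 0.580 in AA cells (-0.56 ± 0.15, limma adjusted p = 0.0251). None of the 6 differences passed without the second untreated AA array, with limma adjusted p of 0.0557 (Eif4e), 0.0656 (Eif1b), 0.113 (Eif2b5), 0.121 (Eif5b), 0.136 (Eif2b4) and 0.194 (Eif2a). None passed without the first untreated SS array either, at 0.0517, 0.113, 0.145, 0.113, 0.164 and 0.0754 in the same order. Without the first untreated AA array 3 passed, Eif1b (0.0815), Eif2b5 (0.0643) and Eif2b4 (0.0791) being lost, and without the second untreated SS array Eif2a did not (0.0886).

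Untreated ATF4-/- and PERK-/- cells did not differ from wild-type cells in any tested initiation factor by limma. For ATF4-/- cells 0.0271% of all probe sets were higher and 0.0679% lower, and 0 members had an unadjusted p under 0.05. For PERK-/- cells the shares were 0.353% and 1.3%, and 3 members had an unadjusted p under 0.05, all lower (8.29% of all probe sets): Eif2b5 by 160804_at, at 0.694 and 0.882 in wild-type and 0.470 and 0.345 in PERK-/- cells (-0.66 ± 0.20, limma adjusted p = 0.152), Eif1a by 103708_at (-0.52 ± 0.16, 0.173) and Eif3c (-0.41 ± 0.16, 0.257). The other probe set of Eif2b5, 96822_at, was 0.570 and 0.450 in wild-type and 0.472 and 0.585 in PERK-/- cells (0.03 ± 0.18, limma adjusted p = 0.947). The smallest p for ATF4-/- cells belonged to Eif2d, which can deliver tRNA to the ribosome and takes part in recycling (0.60 ± 0.27, limma adjusted p = 0.710).

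Eif4g3, the gene of a scaffold that joins the cap-binding protein to the helicase and to eIF3, had values far apart in the SS and AA lines. It was not tested, because both untreated SS arrays were at the lowest value. The other SS arrays were at 0.035 and 0.0281 at 4 h and 0.0131 and 0.0158 at 8 h. The AA arrays were at 1.57 and 1.11 untreated, 1.44 and 1.78 after 4 h and 1.37 and 1.32 after 8 h. A fit without the filter on low values gave 2.61 ± 0.19 for untreated AA against SS (limma adjusted p = 0.000166), a size that depends on the pseudocount of 0.247. On the tunicamycin arrays, wild-type cells had Eif4g3 ratios of 1.02 and 0.763 without and 0.981 and 1.31 with the drug, and the gene was at 1.16 to 1.61 on the ATF4-/- arrays. PERK-/- cells had 0.504 and 0.202 without and 0.576 and 0.0838 with it, below every wild-type array, but the untreated lines did not pass limma's test where probe sets were filtered within the 12 arrays (-0.96 ± 0.39, adjusted p = 0.277). The SS line also has a PERK-/- background, and that of the AA line is not stated. Any part of the PERK background in the Eif4g3 values was not tested, and levels were not compared between the tunicamycin and Fv2E-PERK arrays.

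Eif2s3y and Eif2s3x encode eIF2gamma, the subunit that binds GTP and the initiator tRNA, from the Y and the X chromosome. On the tunicamycin arrays Eif2s3y (103674_f_at) followed the replicate number: it was 0.01 to 0.473 on the 6 arrays numbered 1 and 1.53 to 3.48 on the 6 numbered 2. Eif2s3x was the other way round in each of the 6 groups, at 0.855 to 1.09 on arrays numbered 1 and 0.550 to 0.714 on those numbered 2. Xist, the RNA of the inactive X chromosome, was 4.42 to 13.5 on arrays numbered 1 and 0.01 to 0.251 on those numbered 2. None of the 3 ranges overlapped between the numbers. Other genes of the Y chromosome were mostly at the lowest value on arrays of both numbers. Uty was above 0.01 only on the second untreated arrays of wild-type (6.82) and ATF4-/- cells (3.93). Kdm5d was above it only on the second untreated wild-type array (3.21). With the replicate number as a term and no filter, limma gave 2.75 ± 0.33 for Eif2s3y, -0.46 ± 0.05 for Eif2s3x and -4.33 ± 0.35 for Xist (number 2 minus number 1), with adjusted p of 0.293, 0.228 and 0.110. Over all 12422 probe sets 1 was called (0.00805%), and no member.

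On the Fv2E-PERK arrays Eif2s3y, Eif2s3x and Xist followed the line instead. Eif2s3y was 2.6 to 4.53 on the SS arrays and 0.0251 to 0.474 on the AA arrays, and Xist was 0.106 to 0.215 in SS and 1.75 to 3.71 in AA cells. Eif2s3x was 0.899 to 1.33 in SS and 1.57 to 1.89 in AA cells (0.41 ± 0.13 for the untreated lines, limma adjusted p = 0.0522). A fit without the filter gave -3.40 ± 0.37 for Eif2s3y, AA against SS (limma adjusted p = 0.00084). Each group of the tunicamycin arrays holds 1 array of each number, so every comparison among them is balanced for it. On the Fv2E-PERK arrays Uty was 6.20 to 24.1 in SS and 0.836 to 4.84 in AA cells. Kdm5d overlapped between the lines, at 0.683 to 7.11 in SS and 2.62 to 6.77 in AA cells. The AA and SS lines differ in Eif2s3y, Eif2s3x and Xist on every array, and the part this has in their other differences was not tested.

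**Figure D4:**
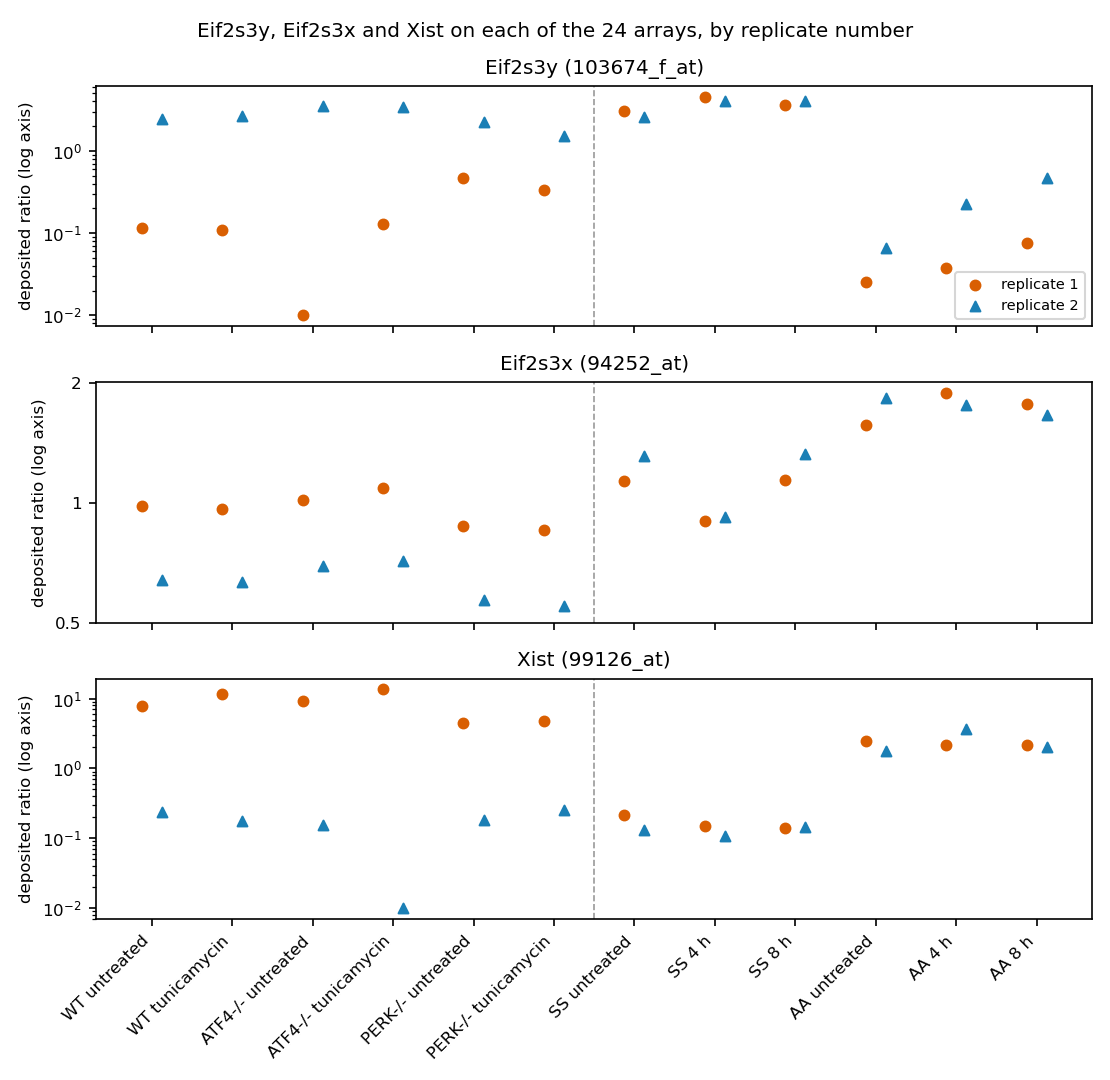
Deposited ratios of Eif2s3y, Eif2s3x and Xist on each of the 24 arrays, on log axes; circles are replicate 1, triangles replicate 2, and the dashed line parts the tunicamycin from the Fv2E-PERK arrays. To its left Eif2s3y is high and Xist low on every array numbered 2, with the reverse on those numbered 1; to its right they separate SS from AA cells.

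The remaining untested probe sets were at the lowest value on tunicamycin arrays only. Eif5a, whose protein carries the hypusine residue and aids elongation, and the second probe set of Eif3e (101695_at) were there on all 12, and on the Fv2E-PERK arrays Eif5a ranged from 2.00 to 17.5. Eif4b, a partner of the helicase, had 4 probe sets, of which 100558_at was at the lowest value on 11 arrays and 100556_at on 7, while the 2 tested, 100557_g_at and 161342_r_at, gave close values in SS cells at 8 h (0.31 ± 0.14 and 0.28 ± 0.17, limma adjusted p = 0.173 and 0.315). Eif4h, a further helicase partner, was at the lowest value on 7 arrays but at 6.01 and 4.80 in untreated PERK-/- cells. The second probe sets of Eif3b (161743_i_at) and Eif4e (162222_r_at) were at the lowest value on 9 arrays each, that of Eif5b on 8, that of Eif2d (102127_at) on 2 and that of Eif3l (162283_r_at) on 1. Probe sets with suffixes such as _f_at, _g_at and _s_at can share signal with related transcripts.

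Other genes of translation were followed for comparison from lists chosen for this tissue and treatment, with earlier results of these data known. In SS cells at 8 h, 15 of 17 tested probe sets of cytosolic tRNA synthetases, the enzymes that charge tRNAs, rose (median 0.94), beside 4 of 37 for the initiation factors (median 0.35). Over all probe sets tested 11.9% rose and 5.1% fell, with a median of 0.07, and the shares of the initiation factors and of the regulators below lie near that. Elongation and termination factors had 3 of 10 higher (median 0.34), among them 2 of the 4 tested probe sets of Etf1, which reads stop codons (0.61 ± 0.15 and 0.57 ± 0.18, limma adjusted p = 0.0176 and 0.0446). Ribosomal proteins had 2 higher and 1 lower of 36 (median 0.11). Regulators of initiation had 3 higher and 1 lower of 20 (median 0.20). Eif4ebp1, a repressor of eIF4E, rose (1.09 ± 0.19, limma adjusted p = 0.00259), with Ppp1r15b, a subunit of the eIF2alpha phosphatase (0.85 ± 0.17, 0.00612), and Abce1, a ribosome recycling factor (0.51 ± 0.14, 0.0287). Eif4ebp2, another repressor of eIF4E, fell by the probe set of smaller error at 4 h (-0.78 ± 0.14, limma adjusted p = 0.00455) and at 8 h (-0.51 ± 0.14, 0.0285). Its other probe set gave -1.32 ± 0.28 at 4 h (limma adjusted p = 0.0115) and -0.80 ± 0.28 at 8 h (0.0722).

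In the difference of the 8 h responses between the lines, the response was lower in AA than in SS cells for 12 of 17 tRNA synthetase probe sets (median -0.89). It was lower for 2 of 37 initiation factors (median -0.44), a share of 5.41% beside the 6.84% of all probe sets tested. No elongation or termination factor of 10 was called, and 1 ribosomal protein of 36 was higher (medians -0.27 and -0.07, against -0.09 over all). Among regulators of initiation it was lower for Eif4ebp1 (-1.34 ± 0.26, limma adjusted p = 0.0131) and Ppp1r15b (-0.93 ± 0.24, 0.037) and higher for Eif4ebp2 (0.72 ± 0.19, 0.0435). After tunicamycin in wild-type cells, 4 of 17 tRNA synthetase probe sets rose (median 0.59), while no probe set of the other lists passed the test.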

How the data were processed

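The 24 arrays measured RNA of mouse fibroblast lines, 2 per group in 12 groups taken from the submitters' descriptions. The authors deposited a table of 12488 probe sets whose values are, judging from the numbers themselves, linear ratios: the median over the arrays was 1 within 0.01 for 91.5% of probe sets. For image analysis, summarisation and scaling the methods were not given in the sources used here. Genes came from the platform annotation (10833 probe sets with 1 symbol, 396 with several, 1193 with none).

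After leaving out 66 control probe sets, limma (version 3.58.1, R 4.3.3) was fitted to log2(ratio + 0.247), where 0.247 is a quarter-median pseudocount, with group means, a trended prior and 6 residual degrees of freedom, separately for the 12 tunicamycin and the 12 Fv2E-PERK arrays (median residual SD 0.249 and 0.199). The 7369 probe sets never at 0.01 entered two-sided tests, adjusted over all of them by the Benjamini-Hochberg method, with a threshold of 0.05. Changes on this scale understate those of low probe sets. A fold divides the mean ratio of one group by that of another. Called members were named in each comparison, and where fewer than 4 were called those with the smallest p up to 4. Alternatives were other filters, scalings, pseudocounts, sets of arrays, a replicate block and the loss of each array. Members and gene lists were chosen with earlier results of these data known. The number of arrays limits the precision.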

Additional observations from a re-analysis of the deposited data

Results flagged for a closer look

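The responses of Eif2s2 and Eif3j1 to 8 h of AP20187 differed between the AA and SS lines by the test of the difference itself. For Eif2s2 (160365_at) the AA response minus the SS response was -1.063 on the log2 scale, and for Eif3j1 it was -0.951. In SS cells both arrays at 8 h lay above both untreated arrays for both genes. In AA cells the arrays at 8 h lay below the untreated ones for Eif3j1 and overlapped with them for Eif2s2. Both AA arrays at 8 h lay below both untreated ones in 27.0% of members and 19.7% of all probe sets tested. The change of Eif3j1 within AA cells did not pass limma's test. The second probe set of Eif2s2, 97083_at, gave -0.68 ± 0.36 without passing (limma adjusted p = 0.265).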

How the results depend on the processing

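The counts of tested initiation factors called in 15 comparisons were recomputed in 196 further settings, 151 of them within 1.5 times the reported count and 45 not. A count of 0 that stayed at 0 was placed among the 151. The 7 comparisons that kept their count throughout were all ones with 0 members called. Every comparison with a called member changed its count in some setting. The direction of every named member called by limma held in each setting tried. With all 24 arrays in one fit, the count went from 0 to 2 for wild-type tunicamycin, from 1 to 2 for ATF4-/- tunicamycin and from 1 to 0 for SS 8 h against 4 h. With only the groups compared it became 0 for ATF4-/- tunicamycin, 0 for SS 4 h, 1 for SS 8 h, 3 for SS 8 h against 4 h and 1 for the difference of 8 h responses. With no filter on low values these were 0, 0, 1, 0 and 1, and with the filter applied within each set of arrays 0 for SS 4 h, 1 for SS 8 h, 0 for SS 8 h against 4 h and 1 for the difference. Quantile normalization gave 3 for ATF4-/- tunicamycin, 1 for SS 8 h and 0 for SS 8 h against 4 h. Leaving out single arrays gave 0 to 1 for SS 4 h, 1 to 10 for SS 8 h, 0 to 0 for SS 8 h against 4 h and for ATF4-/- tunicamycin, 0 to 1 for AA 8 h, 0 to 7 for the difference of 8 h responses and 0 to 5 for untreated AA against SS. In the other 8 comparisons these ranges were 0 to 0, and the lone array left is assumed to vary like the other groups. The cause of these shifts was not tested, beyond the larger number of probe sets or the smaller number of arrays that some settings bring.

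Arrays of one group share a replicate number with arrays of other groups, but correlations of the deviations between same-numbered arrays ran from -0.194 to 0.209 on the tunicamycin arrays and from -0.151 to 0.168 on the Fv2E-PERK arrays, so the numbers were not taken as a pairing of the samples. Xist, Eif2s3y and Eif2s3x do follow the number in all 6 tunicamycin groups, so on those arrays it marks a difference between the arrays in these genes. Whether same-numbered arrays share a source is not known. The main fit left the number out, so any difference that goes with it is part of the residual spread. With a replicate block the count for SS 4 h went from 1 to 2, the added member being Eif5b (98142_at), and no other count of members changed. The replicate number as a term was added after seeing the data.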
